A study of Mus musculus with 16 samples.

Results

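A set of 10 genes on mouse chromosome 17, Glo1, Dnahc8, Cacna1h, Adamts10, Pde9a, Kifc5b, Zfp677, Zfp955b, AI413582 and 0610011F06Rik, was followed through libraries of sorted colon cells that differ in genotype at Spdef. The genes were chosen from these same data. They lie within 20 Mb of Spdef, are not genes of the major histocompatibility complex, and differed with genotype in the same direction in both sorted cell fractions. Their genotype differences are therefore given as a description, with no test. They are 10 of the 21442 genes counted, of 747 genes counted within 20 Mb of Spdef and of 470 tested there. All 10 passed the filter on low counts.

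The cells came from the distal colon of mice 6 to 8 weeks old that carry RedMUC298trTg, a transgene that marks goblet cells with mCherry. SpdefKO_GC were mCherry-positive goblet cells, which secrete intestinal mucus, from RedMUC298trTg mice on the SpdefKO background, and WT_GC were the same cells from RedMUC298trTg mice without it. SpdefKO_EC and WT_EC were the mCherry-negative epithelial cells left by the sort, called colonocytes in the labels. Each of the 4 groups held 4 libraries. All groups carry the reporter, and the mCherry gate was set on a C57Bl6 mouse. RNA of GC and EC was purified on different columns, so purification and cell fraction cannot be told apart. Whether libraries of a group stem from separate mice, and whether a GC and an EC library share a mouse, is not stated in the labels. The sources used here do not give which piece of Spdef is removed, or the strain in which the allele was made.

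Spdef encodes an ETS-family transcription factor that drives the maturation of secretory cells in the gut. When a gene is targeted in embryonic stem cells and the mice are crossed to another strain, DNA of the donor strain remains linked to the targeted locus, and genes in that stretch can carry different alleles in mutant and control mice. Glo1 is a known example of a strain-dependent gene on this chromosome: several laboratory strains carry a duplicated segment that holds it and part of its surroundings, and others do not. These are general facts about mice. Genotypes and copy number were not measured here, so an effect of Spdef loss and an effect of linked DNA cannot be told apart.

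Sorted fractions matched their labels by marker genes. The summed level of 6 goblet cell markers was 51517–63679 CPM (read counts relative to the library's gene counts, per mega-count, TMM-scaled) in SpdefKO_GC, 45682–52236 CPM in WT_GC, 496–543 CPM in SpdefKO_EC and 532–710 CPM in WT_EC. That of 6 absorptive cell markers was 333–515 CPM in SpdefKO_GC, 221–322 CPM in WT_GC, 7107–9140 CPM in SpdefKO_EC and 7588–8490 CPM in WT_EC. Some other cell types' markers moved with genotype. The 6 enteroendocrine markers summed to 189–281 CPM in SpdefKO_GC and 79.4–111 CPM in WT_GC, but to 230–374 CPM in SpdefKO_EC and 518–687 CPM in WT_EC. The 5 immune markers summed to 5.62–6.74 CPM in SpdefKO_GC, 3.40–3.65 CPM in WT_GC, 4.38–9.72 CPM in SpdefKO_EC and 6.27–7.42 CPM in WT_EC. The 4 tuft cell markers summed to 17.4–39.2 CPM in SpdefKO_GC, 31.7–42.1 CPM in WT_GC, 8.44–14.2 CPM in SpdefKO_EC and 33.6–65.7 CPM in WT_EC. The 4 stromal markers summed to 1.72–2.49 CPM in SpdefKO_GC, 0.948–1.60 CPM in WT_GC, 5.42–10.2 CPM in SpdefKO_EC and 7.18–19.9 CPM in WT_EC. None of these markers was at 0 in every library, and their part in the results was not tested. Spdef RNA itself averaged 370 ± 62.2 CPM in SpdefKO_GC and 296 ± 17.7 CPM in WT_GC (SD, n = 4 each). The libraries overlapped, and the log2 difference was 0.33 ± 0.14 (standard error, edgeR adjusted p = 0.116). In EC it averaged 2.15 ± 0.988 CPM in SpdefKO_EC and 2.69 ± 0.808 CPM in WT_EC (log2 -0.28 ± 0.28, edgeR adjusted p = 0.559). A count over the whole gene does not show whether the transcript is intact, so the genotype rests on the labels. In bulk RNA, fewer cells that express a gene and less RNA per cell cannot be told apart.

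Along the chromosome (GRCm38.p6, the assembly called mm10), 5 of the genes lie below Spdef and 5 above it. Below it, in order, are Zfp677 (17:21383707–21399265, plus strand), Cacna1h (17:25374285–25436334, minus strand), 0610011F06Rik (17:25875500–25877163, plus strand), Kifc5b (17:26917091–26932579, plus strand) and AI413582 (17:27563769–27565728, minus strand). Spdef follows at 17:27714446–27731003 on the minus strand. Above it are Glo1 (17:30592861–30612659, minus strand), Dnahc8 (17:30626935–30875762, plus strand), Pde9a (17:31386105–31476309, plus strand), Zfp955b (17:33289521–33307239, plus strand) and Adamts10 (17:33523646–33553782, plus strand). Measured between the lower ends of the gene models, the set spans from -6.33 Mb to 5.81 Mb around Spdef. Dnahc8 is now named Dnah8 and 0610011F06Rik is now named Mettl26.

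SPDEF binds DNA through its ETS domain, so the start regions of the genes were read for ETS core letters. RefSeq promoter sequences (250 bases before to 50 after the start, GRCm38.p6) were matched for 7 of the 10 genes. The 4 below are shown because Glo1 and Dnahc8 start close to each other on opposite strands, and because Kifc5b and AI413582 were the members whose windows held the SPDEF-type core CCGGAT. Each is written 5′ to 3′ on the gene's own strand, with CCGGAT or the general ETS core CCGGAA on either strand in capitals. Glo1 and Dnahc8 hold neither.
Glo1 chr17:30612610-30612909 (-): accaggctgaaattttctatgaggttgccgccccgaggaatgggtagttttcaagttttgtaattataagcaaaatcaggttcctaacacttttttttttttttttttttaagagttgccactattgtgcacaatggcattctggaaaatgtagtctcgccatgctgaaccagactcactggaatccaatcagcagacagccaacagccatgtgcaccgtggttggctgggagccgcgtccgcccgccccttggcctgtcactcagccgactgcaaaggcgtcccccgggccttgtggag
Dnahc8 chr17:30626686-30626985 (+): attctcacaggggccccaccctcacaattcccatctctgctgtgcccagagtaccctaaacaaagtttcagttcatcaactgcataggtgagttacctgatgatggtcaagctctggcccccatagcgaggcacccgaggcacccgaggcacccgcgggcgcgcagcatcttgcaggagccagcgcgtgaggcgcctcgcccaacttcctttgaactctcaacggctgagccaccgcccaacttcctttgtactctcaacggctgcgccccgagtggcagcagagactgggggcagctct
Kifc5b chr17:26916841-26917140 (+): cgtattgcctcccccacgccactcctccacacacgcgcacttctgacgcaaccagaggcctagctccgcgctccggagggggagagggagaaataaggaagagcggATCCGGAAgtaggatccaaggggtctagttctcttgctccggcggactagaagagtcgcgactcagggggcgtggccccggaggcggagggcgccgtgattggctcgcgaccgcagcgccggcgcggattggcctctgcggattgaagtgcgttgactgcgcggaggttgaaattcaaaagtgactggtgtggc
AI413582 chr17:27565678-27565977 (-): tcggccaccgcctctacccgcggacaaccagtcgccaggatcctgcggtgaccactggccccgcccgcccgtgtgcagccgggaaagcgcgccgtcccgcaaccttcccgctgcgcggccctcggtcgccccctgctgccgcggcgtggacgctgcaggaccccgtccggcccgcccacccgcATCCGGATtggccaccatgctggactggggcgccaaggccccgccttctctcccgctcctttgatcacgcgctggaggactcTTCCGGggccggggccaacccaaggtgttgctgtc

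In Kifc5b both cores share letters in a single run of capitals, and in AI413582 the longer run reads CCGGAT on both strands. Of all 32851 promoters in the table, 6.04% hold CCGGAT and 14.9% hold CCGGAA. The second core was also in the windows of Zfp677 and 0610011F06Rik, so 4 of the 7 members with a sequence hold it. The CCAAT box (letters CCAAT, either strand) is in 37.4% of all promoters and in 5 of the 7 members, Glo1, Kifc5b, Zfp677, Zfp955b and AI413582. The 4 windows shown hold 11, 16, 30 and 35 CG pairs in the order printed, against a median of 7 over all promoters. A match in letters is not evidence of binding.

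By genotype, 6 of the 10 genes were higher and 4 lower in cells labelled SpdefKO, in goblet cells and in the other epithelial cells alike. The higher ones were Glo1, Dnahc8, Adamts10, Pde9a, Kifc5b and Zfp955b. The lower ones were Cacna1h, Zfp677, AI413582 and 0610011F06Rik. All 5 members above Spdef were higher in SpdefKO, and of the 5 below it Kifc5b alone was. In each fraction 12915 genes were tested with a Benjamini-Hochberg adjusted p under 0.05 as the threshold. All 10 members pass in both by their choice, against 21.4% of all tested genes in GC (10.4% higher, 11% lower), 12.6% in EC (6.09% higher, 6.54% lower) and 3.65% in both in the same direction. The 4 SpdefKO and 4 WT libraries did not overlap for 9 of the members in GC, where this held for 25.1% of all tested genes, nor for any of the 10 in EC, where it held for 15.3%. In both fractions and the same direction it held for 4.02% of all tested genes.

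**Figure D1:**
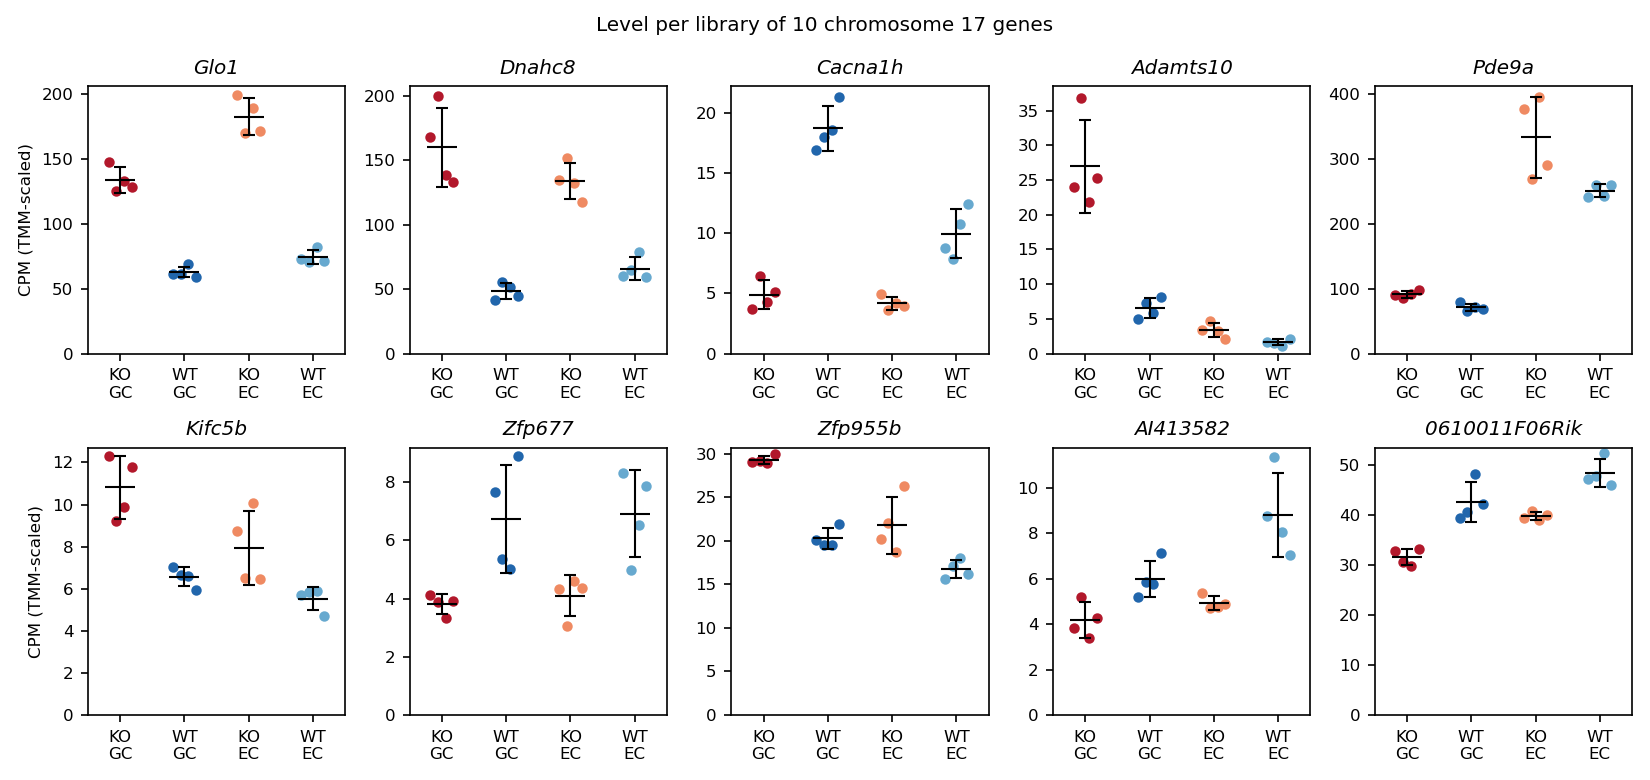
Levels of the 10 genes in every library, in CPM (y axis, from 0), in SpdefKO_GC, WT_GC, SpdefKO_EC and WT_EC from left to right. Points are libraries, the long bar is the mean and the whiskers are the SD (n = 4). Glo1 and Dnahc8 separate by genotype in both fractions, and Glo1, Pde9a and Adamts10 also separate by fraction within each genotype.

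Glo1 encodes glyoxalase I, the enzyme that takes up methylglyoxal bound to glutathione, a reactive by-product of glycolysis. It stood at 148, 125, 133 and 128 CPM in SpdefKO_GC, against 61.5, 61.4, 68.8 and 59.2 CPM in WT_GC. In the other epithelial cells it stood at 199, 170, 189 and 171 CPM in SpdefKO_EC, against 72.7, 70.7, 82.2 and 71.0 CPM in WT_EC. Every SpdefKO library was above every WT library, across fractions as well as within them. The log2 difference, SpdefKO minus WT, was 1.09 ± 0.08 in GC (standard error), a 2.13-fold higher level. In EC it was 1.30 ± 0.08, or 2.46-fold.

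Dnahc8 encodes the heavy chain of an axonemal dynein, a motor of cilia and sperm tails best known from testis. It was at 168, 200, 139 and 133 CPM in SpdefKO_GC, against 41.9, 55.6, 51.8 and 44.8 CPM in WT_GC. It was at 135, 152, 132 and 118 CPM in SpdefKO_EC, against 60.2, 64.8, 78.5 and 59.1 CPM in WT_EC. As for Glo1, no WT library reached the lowest SpdefKO library. The log2 difference was 1.72 ± 0.13 in GC (3.29-fold higher) and 1.03 ± 0.13 in EC (2.05-fold higher). In GENCODE the models of Glo1 and Dnahc8 overlap on opposite strands, and the strand setting of the counting is not given, so reads at the shared stretch cannot be assigned. The non-coding transcript 1700097N02Rik, on the minus strand like Glo1, overlaps both in GENCODE. It averaged 1.28 ± 0.416 CPM in SpdefKO_GC and 0.629 ± 0.234 CPM in WT_GC, a log2 difference of 1.00 that did not pass (edgeR adjusted p = 0.0517), and its EC difference was 0.60 (adjusted p = 0.236).

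Other genes near Glo1 were mixed. Btbd9, a BTB-domain gene near the pair that was put on the list of the Glo1 segment, rose in SpdefKO_GC, at 56.5 ± 3.31 CPM against 43.7 ± 1.26 CPM in WT_GC (log2 0.37 ± 0.07, adjusted p = 0.00130). In EC its difference was 0.14 ± 0.07 (adjusted p = 0.196). Glp1r, the receptor of the gut hormone GLP-1, had too few counts to test, with a group mean of at most 0.702 CPM. Gm6402, the nearest tested gene below Glo1, differed by -0.08 in GC and -0.20 in EC and passed in neither. Abcg1, a cholesterol exporter and the next tested gene above Dnahc8, rose in SpdefKO_GC (26.5 ± 6.72 CPM against 8.95 ± 2.53 CPM in WT_GC, log2 1.57 ± 0.28, adjusted p = 0.000877). In EC it fell, at 3.56 ± 0.877 CPM in SpdefKO_EC and 21.9 ± 8.73 CPM in WT_EC (log2 -2.59 ± 0.31, adjusted p = 8.43e-05).

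The rest of the glyoxal-handling genes did not follow Glo1. The list held Hagh (glyoxalase II), Haghl, Park7, Glod4 and Glod5, and all 5 were tested. In GC 1 rose, Hagh, which also lies on chromosome 17 (log2 0.25 ± 0.08, adjusted p = 0.0302), and none fell, with a list median of -0.06 against 0.00 over all tested genes. In EC 1 rose, Park7, a gene better known from Parkinson disease (log2 0.29 ± 0.08, adjusted p = 0.0196), with a median of 0.09 against 0.01 over all tested genes. Both differences were far smaller than that of Glo1 in the same cells. Among all tested genes, 21.4% passed in GC and 12.6% in EC.

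Cacna1h encodes the pore subunit of a low-voltage-activated T-type calcium channel, and it had the largest lower difference of the set. It was at 3.67, 6.46, 4.31 and 5.12 CPM in SpdefKO_GC, against 16.9, 18.02, 18.6 and 21.3 CPM in WT_GC. It was at 4.91, 3.59, 4.22 and 3.96 CPM in SpdefKO_EC, against 8.74, 7.90, 10.8 and 12.4 CPM in WT_EC. The groups did not overlap in either fraction. The 2 SpdefKO groups were close to each other, while WT_GC was above WT_EC. The log2 difference was -1.94 ± 0.17 in GC (3.83-fold lower) and -1.25 ± 0.18 in EC (2.38-fold lower). Cacna1h overlaps Tpsg1, a membrane-bound tryptase gene, on the opposite strand. Tpsg1 fell in GC, to 20.2 ± 2.02 CPM in SpdefKO_GC against 115 ± 10.1 CPM in WT_GC (log2 -2.51 ± 0.10, adjusted p = 7.01e-12). It was nearly absent from the other epithelial cells, at 0.0807 CPM in SpdefKO_EC and 0.312 CPM in WT_EC. How many reads the pair shares was not tested.

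Of 9 other voltage-gated calcium channel pore genes, 5 could be tested. In GC, Cacna1c rose (log2 0.70 ± 0.11, adjusted p = 0.000164) and Cacna1d fell (log2 -2.18 ± 0.19, adjusted p = 2.08e-07), with a list median of 0.22 against 0.00 over all tested genes. In EC, Cacna1d rose (log2 0.82 ± 0.24, adjusted p = 0.0335), while Cacna1a (-1.02 ± 0.13, adjusted p = 9.05e-05) and Cacna1b (-0.74 ± 0.23, adjusted p = 0.0405) fell, with a median of -0.49 against 0.01. None of these 5 genes lies on chromosome 17. The share of all tested genes that passed was 21.4% in GC and 12.6% in EC.

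Adamts10 encodes a secreted metalloprotease of the ADAMTS family that acts on fibrillin microfibrils. It was at 24.0, 36.8, 21.8 and 25.3 CPM in SpdefKO_GC, against 4.93, 7.31, 5.78 and 8.09 CPM in WT_GC. In the other epithelial cells it was low, at 3.44, 4.63, 3.31 and 2.08 CPM in SpdefKO_EC, against 1.71, 1.58, 1.02 and 2.05 CPM in WT_EC. The GC groups were far apart. The EC groups were separated only narrowly, by the 2.08 CPM of SpdefKO_EC library 20 and the 2.05 CPM of WT_EC library 17, which rest on 20 and 28 reads. The log2 difference was 2.05 ± 0.20 in GC (4.15-fold higher), the largest of the set, and 1.11 ± 0.28 in EC (2.16-fold higher). Of 24 other ADAMTS and ADAMTS-like genes, 8 were tested. None of them passed in GC (median -0.27 against 0.00), and 2 fell in EC, Adamts9 (-1.59 ± 0.35, adjusted p = 0.00802) and Adamtsl5 (-1.51 ± 0.26, adjusted p = 0.00123), with a median of -0.80 against 0.01. Across all tested genes, 21.4% passed in GC and 12.6% in EC.

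Pde9a encodes a phosphodiesterase that hydrolyses cyclic GMP. It was at 90.6, 85.6, 91.4 and 97.3 CPM in SpdefKO_GC, against 79.6, 65.5, 71.1 and 68.0 CPM in WT_GC. It was at 377, 270, 396 and 290 CPM in SpdefKO_EC, against 242, 260, 243 and 260 CPM in WT_EC. The groups came close to each other in both fractions but did not overlap. The log2 difference was 0.36 ± 0.10 in GC (1.28-fold higher) and 0.41 ± 0.10 in EC (1.33-fold higher), the smallest higher difference of the set in GC. Of 19 other phosphodiesterase genes, 17 were tested. In GC 3 rose, Pde4c (1.84 ± 0.31, adjusted p = 0.000368), Pde1c (1.33 ± 0.21, adjusted p = 0.000157) and Pde4b (0.69 ± 0.16, adjusted p = 0.00434), and 1 fell, Pde2a (-0.75 ± 0.12, adjusted p = 0.000170). The list median in GC was 0.11 against 0.00. In EC Pde4b rose (0.85 ± 0.15, adjusted p = 0.00159), and Pde1c (-1.11 ± 0.28, adjusted p = 0.0152) and Pde8b (-0.44 ± 0.14, adjusted p = 0.0454) fell, with a list median of -0.11 against 0.01. For all tested genes the share that passed was 21.4% in GC and 12.6% in EC.

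Kifc5b encodes a motor of the kinesin-14 family. It ranged over 9.24–12.3 CPM in SpdefKO_GC and 5.96–7.06 CPM in WT_GC. In the other epithelial cells it ranged over 6.46–10.1 CPM in SpdefKO_EC and 4.70–5.87 CPM in WT_EC. Neither pair of ranges overlapped. The log2 difference was 0.72 ± 0.15 in GC (1.64-fold higher) and 0.53 ± 0.15 in EC (1.45-fold higher). Its transcript is 96.8% identical to that of Kifc1, a mitotic spindle motor also on chromosome 17, over 2312 aligned bases, so reads may be split between them and the value of Kifc5b is uncertain. Kifc1 rose in GC, at 26.2 ± 4.69 CPM in SpdefKO_GC and 17.03 ± 3.77 CPM in WT_GC (log2 0.61 ± 0.21, adjusted p = 0.0438). In EC its difference was 0.64 ± 0.21 (adjusted p = 0.0574). The summed level of 2 proliferation markers moved the same way, at 972–1530 CPM in SpdefKO_GC and 630–894 CPM in WT_GC, and at 714–1244 CPM in SpdefKO_EC and 539–813 CPM in WT_EC, and their part in the result was not tested. The other measured kinesin-14 genes were Kifc2, which fell in EC (-0.69 ± 0.20, adjusted p = 0.0331), and Kifc3, which passed in neither fraction. Over these 3 tested genes the median was -0.24 in GC and -0.27 in EC, against 0.00 and 0.01 over all tested genes. Of the latter, 21.4% passed in GC and 12.6% in EC.

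Zfp677 and Zfp955b encode C2H2 zinc finger proteins, and they moved in opposite directions. Zfp677 ranged over 3.32–4.13 CPM in SpdefKO_GC and 5.02–8.89 CPM in WT_GC, and over 3.07–4.61 CPM in SpdefKO_EC and 4.97–8.30 CPM in WT_EC. Its log2 difference was -0.80 ± 0.20 in GC (1.74-fold lower) and -0.76 ± 0.20 in EC (1.70-fold lower). The WT libraries spread more than the SpdefKO libraries, and no ranges overlapped. Zfp955b ranged over 28.9–30.0 CPM in SpdefKO_GC and 19.5–22.0 CPM in WT_GC, and over 18.7–26.3 CPM in SpdefKO_EC and 15.6–18.1 CPM in WT_EC. Its log2 difference was 0.53 ± 0.09 in GC (1.45-fold higher) and 0.37 ± 0.10 in EC (1.30-fold higher). Zfp955b is 98.4% identical to Zfp955a over 2185 aligned bases and 96.6% to Zfp422 over 2242, so its value is uncertain. Zfp955a, its nearest tested neighbour below, fell in GC, against the direction of Zfp955b (log2 -0.33 ± 0.09, adjusted p = 0.0114), and differed by -0.09 in EC.

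These zinc finger genes sit among many others within 20 Mb of Spdef, of which 37 were counted and 36 tested. In GC 1 rose, Zfp57 (1.32 ± 0.31, adjusted p = 0.00535), and 3 fell, Zfp955a, Zfp472 (-0.58 ± 0.12, adjusted p = 0.00174) and Zfp870 (-0.60 ± 0.14, adjusted p = 0.00658), with a median of -0.06 against 0.00. In EC none passed, with a median of -0.04 against 0.01. Passing genes made up 21.4% of all tested genes in GC and 12.6% in EC. Zfp677's own neighbours, Zfp160 and Zfp54, passed in neither fraction.

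AI413582 and 0610011F06Rik are small, poorly described genes close to Spdef. AI413582 ranged over 3.39–5.21 CPM in SpdefKO_GC and 5.19–7.12 CPM in WT_GC, the only member comparison in which the groups overlapped, and by 1 library on each side. In EC it ranged over 4.70–5.36 CPM in SpdefKO_EC and 7.04–11.4 CPM in WT_EC. Its log2 difference was -0.51 ± 0.17 in GC (1.43-fold lower) and -0.83 ± 0.16 in EC (1.78-fold lower). It overlaps Hmga1 on the opposite strand, which had a group mean of at most 0.330 CPM and was not tested. 0610011F06Rik ranged over 29.7–33.1 CPM in SpdefKO_GC and 39.3–48.2 CPM in WT_GC, and over 39.0–40.6 CPM in SpdefKO_EC and 45.9–52.3 CPM in WT_EC. Its log2 difference was -0.43 ± 0.07 in GC (1.35-fold lower) and -0.28 ± 0.07 in EC (1.21-fold lower).

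Dnahc8 had 14 other axonemal dynein heavy chain genes on its list, of which 10 were counted and 7 tested. In GC 2 rose, Dnahc17 (1.57 ± 0.42, adjusted p = 0.0126) and Dnahc2 (0.77 ± 0.22, adjusted p = 0.0156), with a median of 0.28 against 0.00. In EC none rose and 4 fell, with a median of -0.87 against 0.01, the opposite of Dnahc8. The 4 were Dnahc5 (-2.23 ± 0.30, adjusted p = 0.000185), Dnahc9 (-0.98 ± 0.28, adjusted p = 0.0256), Dnahc2 (-0.94 ± 0.22, adjusted p = 0.00860) and Dnahc7b (-0.87 ± 0.22, adjusted p = 0.0145). Among all tested genes, 21.4% passed in GC and 12.6% in EC. The group means of the list were at most 15.5 CPM, whereas Dnahc8 averaged 160 ± 30.7 CPM in SpdefKO_GC and 134 ± 14.05 CPM in SpdefKO_EC. These levels are not corrected for gene length.

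**Figure D2:**
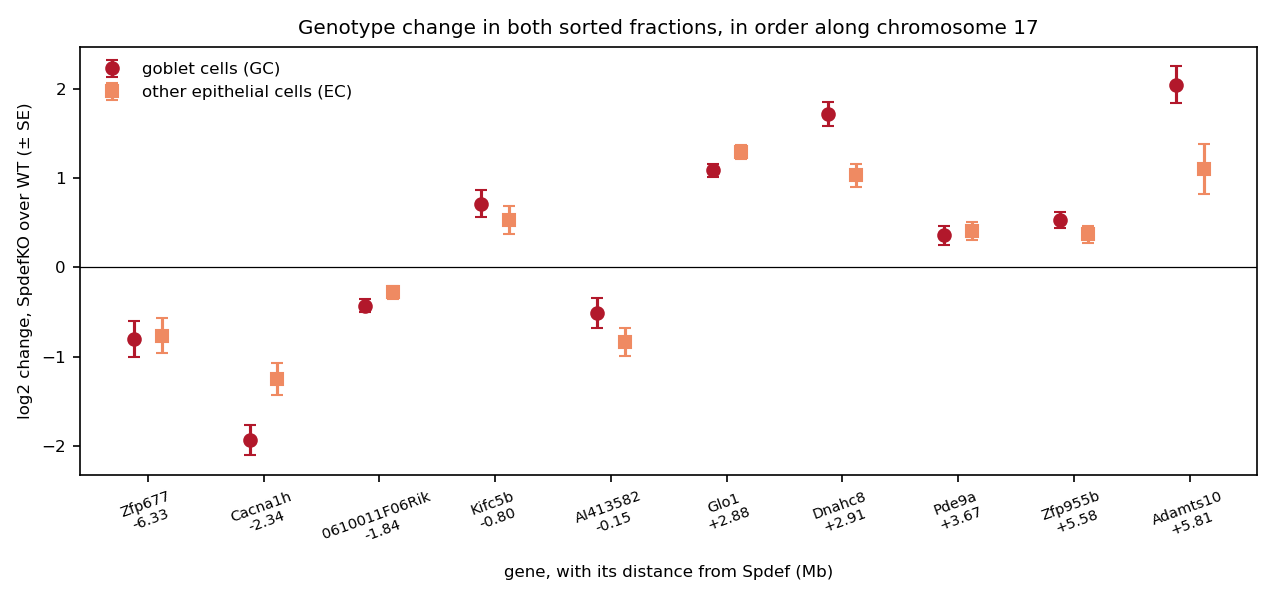
Log2 genotype difference (y axis, SpdefKO over WT) of each member in goblet cells (circles) and the other epithelial cells (squares), in order along the chromosome with the distance from Spdef in Mb under each name (x axis). Bars are standard errors; the 5 genes above Spdef lie above 0, and the differences run from -1.94 for Cacna1h to 2.05 for Adamts10 in goblet cells.

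By adjusted p alone, the 3 members nearest the threshold were AI413582, Kifc5b and Pde9a, whose larger adjusted p of the 2 fractions was 0.0340, 0.0287 and 0.0186. Just outside it within 20 Mb, H2- genes left out, were Prss32 (0.0526), Psmb8 (0.0539) and Ncrna00085 (0.0543). The threshold alone did not mark off the set. Another 15 genes of the region, H2- genes left out, passed in both fractions in the same direction. Most of these lie next to or among the H2- genes, and the set leaves out genes of the major histocompatibility complex. Which of them were left out for that reason is not given. Psmb8, a subunit of the immunoproteasome, had log2 differences of 1.28 in GC and 1.21 in EC. It lies 6.48 Mb above Spdef among the H2- genes, so its place outside the set need not rest on the threshold.

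Between sorted fractions the share of members that passed was near that of all genes, and these comparisons took no part in the choice of members. In SpdefKO cells, 6 of the 10 passed between GC and EC, 3 higher and 3 lower in GC, against 56.4% of all tested genes (28% higher, 28.4% lower). In WT cells, 8 of 10 passed, 3 higher and 5 lower in GC, against 61.2% of all tested genes (31% higher, 30.1% lower). Among all genes that passed in SpdefKO cells, 49.7% were higher in GC, a share that became 61.9% with library totals in place of TMM factors and 60.9% with upper-quartile factors.

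Adamts10 had the largest fraction difference among members with a higher level in GC. It was 7.81-fold higher in SpdefKO_GC than in SpdefKO_EC (log2 2.97 ± 0.22, adjusted p = 1.18e-09) and 4.06-fold higher in WT_GC than in WT_EC (2.02 ± 0.26, adjusted p = 1.83e-06). All 4 GC libraries lay above all 4 EC libraries in each genotype. Pde9a went the other way, 3.66-fold lower in SpdefKO_GC than in SpdefKO_EC (log2 -1.87 ± 0.10, adjusted p = 1.66e-11) and 3.53-fold lower in WT_GC than in WT_EC (-1.82 ± 0.11, adjusted p = 2.10e-11). For Pde9a the fraction difference was thus several times the genotype difference, while for Glo1 the order was the reverse.

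Glo1 was slightly lower in GC, by 1.36-fold in SpdefKO (log2 -0.45 ± 0.08, adjusted p = 4.67e-05) and 1.18-fold in WT (-0.24 ± 0.08, adjusted p = 0.0112), and the WT call was lost with upper-quartile factors (-0.16) or library totals (-0.16). Dnahc8 did not pass in SpdefKO (0.25 ± 0.13, adjusted p = 0.0995), but did with library totals (0.38), with upper-quartile factors (0.37) and without SpdefKO_GC library 19 (0.33). In WT it was lower in GC (-0.43 ± 0.13, adjusted p = 0.00818). Cacna1h likewise did not pass in SpdefKO (0.22 ± 0.19, adjusted p = 0.332) and was 1.88-fold higher in GC than in EC in WT (0.91 ± 0.16, adjusted p = 5.81e-05). Whether these fraction differences depend on genotype was not tested, since that contrast is built from the ones used to choose the genes.

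Among the remaining members, Zfp955b was higher in GC in SpdefKO (0.43 ± 0.09, adjusted p = 0.000595) and in WT (0.27 ± 0.10, adjusted p = 0.0190), the WT call being lost without WT_EC library 10 (0.21), WT_EC library 17 (0.24) or WT_GC library 18 (0.21). Kifc5b was higher in GC in SpdefKO (0.44 ± 0.14, adjusted p = 0.0153), a call lost without SpdefKO_GC library 3 (0.35), SpdefKO_EC library 6 (0.34) or SpdefKO_EC library 20 (0.35), and did not pass in WT (0.25 ± 0.15, adjusted p = 0.169). The gene 0610011F06Rik was lower in GC in SpdefKO (-0.33 ± 0.07, adjusted p = 0.000853) and in WT (-0.18 ± 0.07, adjusted p = 0.0388), where leaving out WT_GC library 9 (-0.14), WT_GC library 11 (-0.18) or WT_EC library 14 (-0.17) ended the call, as did library totals (-0.10), upper-quartile factors (-0.10) and no filter on low counts (-0.18). AI413582 did not pass in SpdefKO (-0.24 ± 0.17, adjusted p = 0.242) and was lower in GC in WT (-0.56 ± 0.16, adjusted p = 0.00459). Zfp677 passed in neither, at -0.10 ± 0.21 in SpdefKO (adjusted p = 0.720) and -0.06 ± 0.19 in WT (adjusted p = 0.807). Of the 36 other zinc finger genes of the region, 15 were higher and 4 lower in GC in SpdefKO, where 28% of all tested genes were higher and 28.4% lower. In WT 15 were higher and 2 lower, where 31% of all tested genes were higher and 30.1% lower.

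**Figure D3:**
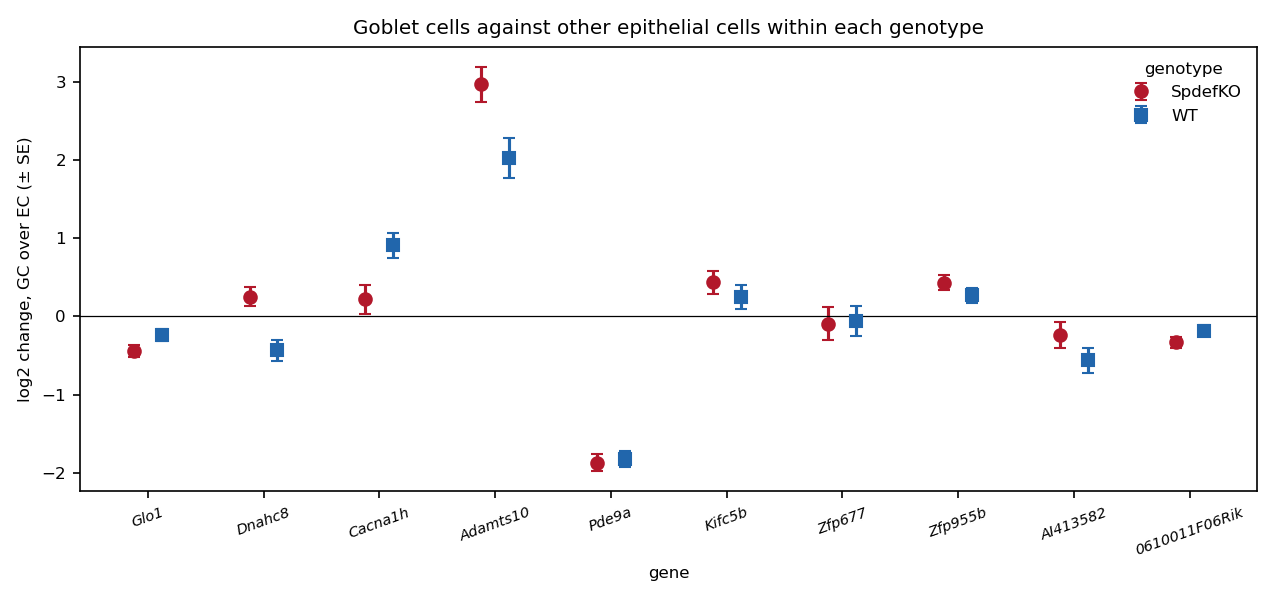
Log2 difference between sorted fractions (y axis, GC over EC) for each member (x axis) in SpdefKO cells (circles) and WT cells (squares). Bars are standard errors; Adamts10 lies highest, at 2.97 and 2.02, and Pde9a lowest, at -1.87 and -1.82.

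The direct neighbours of the members were read next. The nearest tested gene on each side of each member, members left out, gave 19 genes. In GC 6 of them passed, 1 higher and 5 lower, which is 31.6% of the neighbours, against 21.4% of all tested genes. In EC 2 passed, both lower, or 10.5%, against 12.6%. None of the 19 passed in both fractions in the same direction, and 12 passed in neither. Members were skipped as neighbours and had been chosen for passing, so the counts of passing neighbours are lowered by construction. They cannot be compared evenly with the shares of all tested genes. Those that passed in GC, besides Abcg1, Tpsg1 and Zfp955a, were Fam195a next to 0610011F06Rik (-0.76 ± 0.15, adjusted p = 0.00168), the sugar-phosphate transporter Slc37a1 next to Pde9a (-0.55 ± 0.10, adjusted p = 0.000846) and Bnip1 next to Kifc5b (-0.26 ± 0.08, adjusted p = 0.0270). Besides Abcg1, Phf1, a Polycomb-associated gene next to Kifc5b, passed in EC (-0.62 ± 0.11, adjusted p = 0.000987). Between Zfp677 and Adamts10, the ends of the set, 221 genes were tested. Of these, 11 passed in both fractions in the same direction, where 3.65% of all tested genes did. Of the 11, 10 were the members, which were chosen for passing. Among the other 211 genes tested there Noxo1 alone passed, a count made low by taking out the members. It cannot be set beside the share of all tested genes. Noxo1, an organiser of the epithelial NADPH oxidase, differed by -0.35 in GC and -0.32 in EC.

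**Figure D4:**
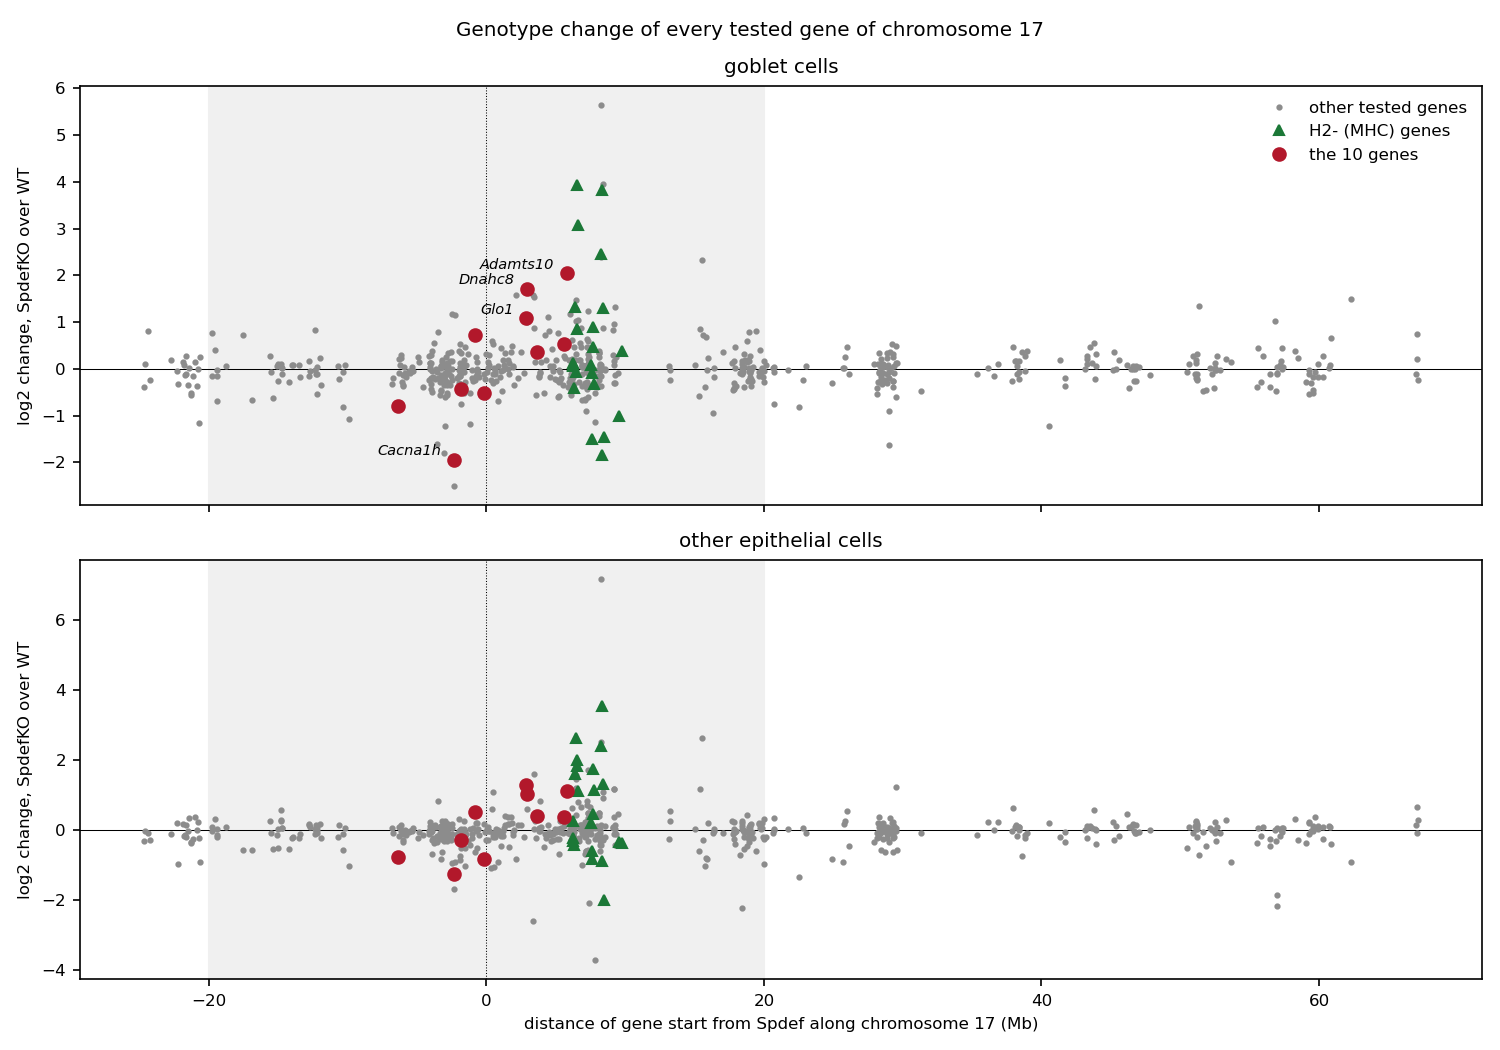
Log2 genotype difference (y axes, SpdefKO over WT) of the tested genes of chromosome 17 by distance from Spdef in Mb (x axis), goblet cells above and the other epithelial cells below, with the region within 20 Mb shaded. Circles mark the 10 members and triangles the H2- genes; members lie between -6.33 and 5.81 Mb, and the H2- genes lie beyond them on the upper side.

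Over the whole region within 20 Mb of Spdef, 120 of 470 tested genes passed in GC (25.5%), against 21.2% of genes elsewhere. In EC 71 passed (15.1%), against 12.5% elsewhere. Passing in both in the same direction were 37 genes (7.87%), 23 higher and 14 lower, against 434 of 12445 elsewhere (3.49%). Without SpdefKO_EC library 4 these shares were 6.75% and 2.21%. Of the 37, 12 were H2- genes of the major histocompatibility complex, which made up 12 of 22 tested (54.5%). Without H2- genes 25 of 448 passed (5.58%), of which the set holds 10. Leaving out H2- symbols keeps the other genes that lie among them. Asking also for at least a 2-fold difference in both fractions left 16 of 470 (3.40%), 9 of 448 without H2- genes (2.01%) and 70 of 12445 elsewhere (0.562%). The typical gene of the region did not stand out, since the median absolute log2 difference without the members was 0.189 in GC and 0.165 in EC, against 0.184 and 0.156 over all tested genes. No test was made of these shares, because the region and the members were chosen with the values known.

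These genes were unevenly placed along the region. The stretch from 5 to 10 Mb above Spdef, where the H2- genes lie, held 25 of the 37 genes, or 16.2% of 154 tested. With H2- genes left out, it still held 13 such genes among 132 tested, of the 25 in the whole region. The other 5 Mb stretches within the region with at least 20 tested genes held 0 to 4.76%. Members fell in the stretches from -10 to -5 Mb (1), -5 to 0 Mb (4), 0 to 5 Mb (3) and 5 to 10 Mb (2). Among all chromosomes, chromosome 17 had the highest share of genes that passed in both fractions in the same direction, 6.63% of 664 tested, members and H2- genes included, and the others had 1.76 to 4.91%. With at least a 2-fold difference it held 2.41%, and the others 0 to 1.15%. Of the 44 genes of chromosome 17 that passed in both, 12 were H2- genes and 10 were the members, chosen for passing. Both shares of chromosome 17 rest partly on these genes.

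**Figure D5:**
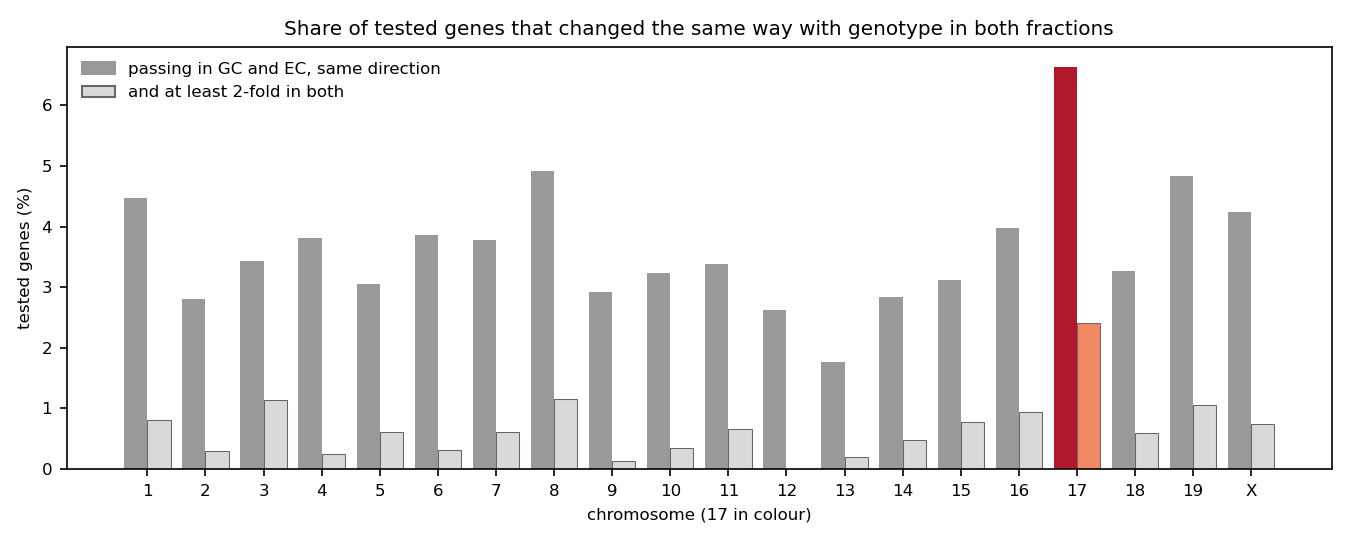
Share of tested genes (y axis, percent) that passed both genotype comparisons in the same direction, by chromosome (x axis). Left bars are all such genes and right bars those with at least a 2-fold difference in both fractions. Chromosome 17, in colour, stands at 6.63% and 2.41%, with the members, chosen for passing, and the H2- genes included.

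Beyond the set, 15 other genes of the region that are not H2- genes passed in both fractions in the same direction, 9 higher and 6 lower. Most lie between 6.11 and 9.17 Mb above Spdef, next to or among the H2- genes. Gm8801 was nearly specific to SpdefKO, at 3.75 ± 0.499 CPM in SpdefKO_GC and 0.0641 ± 0.0806 CPM in WT_GC, and at 3.87 ± 0.347 CPM in SpdefKO_EC and 0.0197 ± 0.0395 CPM in WT_EC. A930015D03Rik (log2 2.39 ± 0.21 in GC, 2.52 ± 0.23 in EC), Ly6g6c (1.25 ± 0.31 and 1.73 ± 0.29), Trim40 (0.97 ± 0.21 and 1.18 ± 0.19) and Gm8909 (3.94 ± 0.36 and 0.92 ± 0.18) were higher as well. The heat-shock genes Hspa1a (0.64 ± 0.12 and 0.85 ± 0.12) and Hspa1b (0.48 ± 0.11 and 0.72 ± 0.11) were higher together, and being near-identical copies they may share reads. Cdsn, a gene of corneodesmosomes, was lower (-1.14 ± 0.29 and -3.71 ± 0.63). Farther out, at 15.3 and 15.56 Mb, the death receptor gene Tnfrsf21 was lower (-0.59 ± 0.14 and -0.61 ± 0.14) and the adhesion receptor gene Gpr110 higher (2.32 ± 0.28 and 2.64 ± 0.25). Gpr110 averaged 14.4 ± 4.63 CPM in SpdefKO_GC and 2.89 ± 0.623 CPM in WT_GC, and 39.7 ± 10.2 CPM in SpdefKO_EC and 6.38 ± 1.75 CPM in WT_EC.

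The EC background is the less steady one. In EC 787 genes were higher and 844 lower in SpdefKO, so that 48.3% of those that passed were higher, against 32.7% with library totals in place of TMM factors and 33.1% with upper-quartile factors. The higher count was 380 without SpdefKO_EC library 4, 438 without WT_EC library 17, 469 without WT_EC library 10 and 1183 without SpdefKO_EC library 6, and the lower count was 560 without SpdefKO_EC library 4. In GC 1341 genes were higher and 1422 lower. Gene counts per library ran from 10085637 to 17111987.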

How the data were processed

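RNA of sorted mouse colon cells was sequenced in 16 libraries, 4 per group. The authors deposited read counts, whole numbers per gene symbol. Per the labels' protocols, libraries were made with a stranded total RNA kit after removal of ribosomal RNA. The submitters' processing notes list STAR 2.4.0f, HTSeq 0.6.1p1, FastQC 0.11.2 and DESeq2 1.14, with mm10 as build and no roles. Annotation and strand setting of the counting: not given in the sources used here. Another deposited table holds a normalized signal, which the authors made as counts divided by 1 factor per library. It served only to restore 27 symbols that had turned into dates. Of all counts, 47.1–54.7% sat on 3 lines without a gene name, which were left out. Counts of 21442 genes summed to 10085637–17111987 per library.

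Tests used edgeR 4.0.16 (quasi-likelihood, robust) under R 4.3.3 with limma 3.58.1. TMM factors were 0.944–1.06, and edgeR's filter by group kept 12915 genes. The model had 4 group coefficients over all 16 libraries, and p-values were adjusted by Benjamini-Hochberg over all tested genes, with 0.05 as the threshold. The biological coefficient of variation was 11.7%. Values are CPM as mean ± SD (n = 4). The standard error of a log2 change is its size divided by the square root of F, which is approximate. The script was tested on simulated data. Since the labels do not name separate mice, p-values measure the spread between libraries, which may be partly technical.

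The members and the lists were chosen with earlier results of these data known. Named genes are the members, Spdef, the nearest tested gene on each side of a member, the 10 other genes of the region without H2- genes whose smaller log2 change of the 2 fractions was largest among those passing in both in the same direction, and list members that passed a genotype test. Noxo1, Psmb8, Prss32, Ncrna00085, Gm6402 and Glp1r were named for their place beside a count, a threshold or Glo1. Positions and promoters are from RefSeq GRCm38.p6. Symbols matched a current name for 19828 genes and an older one for 1498, and overlaps between genes are from GENCODE M21. Near-copies are transcripts with at least 85% identity over at least 300 bases (BLAST+ 2.17.0). Alternatives were DESeq2 size factors, upper-quartile factors, library totals, no filter, the DESeq2 Wald test (1.42.0), limma-voom, only the groups compared, each library left out in turn, and regions of 10 and 5 Mb.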

Additional observations from a re-analysis of the deposited data

Results flagged for a closer look

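Of 44 groups of 4 libraries examined (the members and Spdef), 1 held a library far from the others: Kifc5b in WT_EC library 17, at 4.70 CPM. Chance flags about 5% of such groups. Without this library the EC genotype difference of Kifc5b was 0.46 on the log2 scale and no longer passed.

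Among 53 genes searched (the members, their neighbours, and list genes, which were taken for passing a genotype test), 5 had every SpdefKO library above every WT library in one fraction and below in the other. This held for 152 of all tested genes (1.18%). None of the 5 is a member, and the difference between fractions was not tested. Abcg1, the next tested gene above Dnahc8, differed by 1.57 on the log2 scale in GC and by -2.59 in EC. Cacna1c differed by 0.70 in GC and by -0.40 in EC, where it did not pass (edgeR adjusted p = 0.261), and Cacna1d by -2.18 in GC and 0.82 in EC. Dnahc2 differed by 0.77 in GC and -0.94 in EC. Pde1c differed by 1.33 in GC and -1.11 in EC.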

How the results depend on the processing

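Under 23 alternatives the 460 genotype values of the members kept their direction, 441 kept their side of the threshold and 19 lost it. AI413582 in GC lost it in 6 and Kifc5b in EC in 5 of 23 alternatives. Of 460 fraction values, 436 kept direction and side, 14 lost and 3 gained the call. Zfp677, never called between fractions, reversed in WT with library totals (0.017), upper-quartile factors (0.025) and in 3 of the single-library omissions, which ran from -0.230 to 0.061 (WT_EC library 10, WT_GC library 11 and WT_GC library 13 gave values above 0). In SpdefKO it reversed with library totals (0.030) and upper-quartile factors (0.018). The cause was not tested.

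Library totals and upper-quartile factors moved the median of all genes between SpdefKO_GC and SpdefKO_EC by 0.13 and 0.11. Genes higher in SpdefKO_EC than in WT_EC numbered 787, against 520 with library totals, 470 with only the groups compared and 380 to 1183 with single libraries left out, and those lower numbered 844, against 560 to 1070. Within 5 Mb of Spdef, by construction a smaller region, 8 of 187 tested genes (4.28%) passed in both fractions in the same direction. Among all tested genes this share was 3.65%. The 8 include 4 members below Spdef and 3 above it, chosen for passing, so the 2 shares cannot be compared evenly. Of the same 187 genes 45 passed in GC and 26 in EC, where 21.4% and 12.6% of all tested genes passed. Without a filter the shares passing in both were 4.82% in the region and 1.55% elsewhere. Counts of members passing between fractions were 5 to 7 in SpdefKO and 7 to 8 in WT with single libraries left out. No paired analysis was made, because the labels do not state whether a GC and an EC library share a mouse.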
